A study of Mus musculus with 6 samples.

Results

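The comparison set 4 lines of mouse embryonic stem cells that live on a coelacanth protein against 2 lines that live on mouse OCT4, and asked which genes moved the same way in all 4. All 6 samples of the series took part, and none was left out. The cells are ZHBTc4, a mouse embryonic stem cell line whose own Oct4 alleles are disrupted and whose Oct4 transgene is switched off by tetracycline. Every line received a linearized pCAG-IP plasmid by electroporation, was kept with 2 µg/mL tetracycline and, from day 2, 1 µg/mL puromycin, and grew from a colony picked at day 9 in serum medium with LIF on gelatin. Clones 1 and 2 of mOct4 carry mouse OCT4 on that plasmid, clones 4 and 5 of LcPOU5F1 carry the coelacanth POU5F1 protein, and clones 1 and 2 of LcPOU5F3 carry its paralog POU5F3. Each line is 1 picked clone with 1 array, so a clone's own history and the protein it carries vary together, and p-values measure the spread between clones of a group. A gene was taken as shared when it passed the test of both coelacanth proteins against mOct4 and all 4 coelacanth clones lay beyond both mOct4 clones on the same side. Of 14595 named genes tested, 646 (4.43%) met both conditions, 336 (2.3%) higher and 310 (2.12%) lower than with mOct4.

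OCT4, the product of Pou5f1, is a transcription factor that embryonic stem cells need to stay pluripotent. It binds an octamer motif through a bipartite POU domain, often beside SOX2, and without it stem cells tend to turn into trophectoderm, the outer layer of the blastocyst. OCT4 belongs to the POUV class. Coelacanths keep both ancient copies of that class, POU5F1 and POU5F3, whereas mice keep the former alone. Rescue of OCT4-depleted mouse stem cells is a common assay of what a POUV protein from another species can do.

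The promoters of 5 shared genes are shown. Gstt1, Unc5a and Nell1 passed against mOct4 with each coelacanth protein on its own. Stra8 had the largest fall and Meis1 was among the largest rises. Unc5a and Nell1 entered the test only through the side where they were high, so their p-values are a description. The sequences are the 250 bases before the first transcript start, 5′ to 3′ on the gene's strand, taken from RefSeq on GRCm38.p6 and matched by symbol. Capitals mark the only match to the octamer core ATGCAA on either strand in these windows, which lies in the Gstt1 promoter and reads as its reverse complement. The positions are chr10:75797732-75797981 for Gstt1 (minus strand), chr13:54949161-54949410 for Unc5a (plus), chr6:34920698-34920947 for Stra8 (plus), chr7:49975100-49975349 for Nell1 (plus) and chr11:19018970-19019219 for Meis1 (minus).
Gstt1: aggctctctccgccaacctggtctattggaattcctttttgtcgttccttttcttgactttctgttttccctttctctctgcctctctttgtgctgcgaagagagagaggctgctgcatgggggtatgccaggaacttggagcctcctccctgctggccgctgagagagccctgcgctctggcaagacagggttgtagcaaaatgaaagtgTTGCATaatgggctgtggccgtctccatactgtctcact
Unc5a: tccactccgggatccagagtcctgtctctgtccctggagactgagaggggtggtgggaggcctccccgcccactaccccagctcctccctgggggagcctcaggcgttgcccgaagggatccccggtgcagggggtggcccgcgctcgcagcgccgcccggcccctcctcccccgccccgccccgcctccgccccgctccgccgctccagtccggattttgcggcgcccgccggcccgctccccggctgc
Stra8: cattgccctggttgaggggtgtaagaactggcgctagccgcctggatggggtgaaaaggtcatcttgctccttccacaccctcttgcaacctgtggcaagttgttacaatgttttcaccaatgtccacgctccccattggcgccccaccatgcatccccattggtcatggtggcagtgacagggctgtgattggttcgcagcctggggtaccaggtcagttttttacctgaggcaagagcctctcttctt
Nell1: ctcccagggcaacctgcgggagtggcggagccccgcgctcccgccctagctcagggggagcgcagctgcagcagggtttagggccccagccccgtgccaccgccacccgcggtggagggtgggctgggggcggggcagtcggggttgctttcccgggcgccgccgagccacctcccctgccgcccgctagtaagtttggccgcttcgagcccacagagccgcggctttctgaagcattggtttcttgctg
Meis1: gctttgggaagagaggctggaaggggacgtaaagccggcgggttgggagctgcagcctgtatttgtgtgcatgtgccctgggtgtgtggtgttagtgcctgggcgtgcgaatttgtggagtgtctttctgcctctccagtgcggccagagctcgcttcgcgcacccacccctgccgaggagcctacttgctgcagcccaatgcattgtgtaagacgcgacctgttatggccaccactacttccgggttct

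A gene was counted once if any of its 250-base windows held a motif on either strand. The full octamer ATGCAAAT was held by 1.54% of 11630 tested genes with a listed promoter. Among shared genes whose order held above the dimmest readable signal, 5 of 210 higher genes (2.38%) and 1 of 203 lower genes (0.49%) held it. The shorter core ATGCAA, which is part of the octamer, was held by 8.43% of all these tested genes, 7.14% of higher and 5.91% of lower genes. These shares describe letters in a short window and say nothing about binding elsewhere.

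Levels are log2 processed signals relative to each array's 75th percentile, so 0 is that percentile and a step of 1 is a doubling. The mOct4 arrays read more probes well above background (57.5% and 57.8%) than the coelacanth arrays (43.5% to 53.3%). An exact permutation test of that share over samples gave a two-sided p of 0.133, and 4 against 2 clones cannot go below 0.0667 on 1 side. Its part in the shift of dim genes was not tested, so shared genes are also given after every signal was raised to the highest array floor, -2.44: 529 of the 646 kept their order (3.62% of genes tested), 270 of them higher (1.85%) and 259 lower (1.77%). When the test itself was rerun on signals raised to that floor, 763 genes were shared, of which 378 were among the 646. All 8 stem cell markers were well above background on every array, with a summed level of 723 to 812 in the mOct4 clones, 710 to 738 in the LcPOU5F1 clones and 284 to 409 in the LcPOU5F3 clones, in multiples of the 75th percentile. The summed level of 8 trophectoderm markers was 15.9 to 16.0, 10.8 to 17.9 and 499 to 532 in the same order, with 6 to 7, 4 to 6 and 7 of the 8 well above background. The primitive endoderm sum, over 7 markers, was 0.522 to 0.716 with mOct4, 0.941 to 1.49 with LcPOU5F1 and 1.94 to 3.19 with LcPOU5F3. Only 2 to 5, 1 to 5 and 2 to 4 of the 7 were well above background in that order. These sums therefore rest in large part on unread signals, and the array floors were unlike. The 2-cell-like sum, over 6 markers, was 31.4 to 31.7, 10.8 to 17.0 and 4.43 to 12.3 in that order. Of these markers 6, 1 to 2 and 3 were well above background. The neuroectoderm sum was 6.65 to 6.90 with mOct4, 8.22 to 10.2 with LcPOU5F1 and 2.84 to 2.97 with LcPOU5F3. For fibroblasts it was 1.88 to 2.17, 1.16 to 1.19 and 4.45 to 5.26 in that order. Of 8 fibroblast markers 4, 3 and 4 to 5 were well above background. For mesoderm the sum was 6.4 to 8.0, 6.8 to 7.8 and 5.5 to 5.9, with 2 of 5 markers well above background on every array. The blood sum was at most 0.777 over all 6 clones. The part of these marker sums in the results was not tested. Fewer cells of a type and less RNA per cell cannot be told apart in these bulk samples.

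Across the genome the shared shift took in a small share of genes. Limma on all 6 arrays, with Benjamini-Hochberg adjustment, called 762 genes (5.22%), 433 higher (2.97%) and 329 lower (2.25%). The side condition alone was met by 28.6% of all genes, 15.3% above and 13.3% below both mOct4 clones. The 116 called genes that failed it all differed between the coelacanth proteins, against 20.6% of all genes. A gene called on the mean of both proteins mostly fails the side condition because they differ, so that count is a description. In only 80 shared genes did every coelacanth clone lie at least 2-fold beyond both mOct4 clones above the highest floor, 62 lower (0.425%) and 18 higher (0.123%). These counts moved widely with the clones and the fit used. No gene passed with either mOct4 clone or either LcPOU5F1 clone left out (1674 to 3354 had an unadjusted p under 0.05), whereas 2844 and 1945 passed without LcPOU5F3 clone 1 or 2. Slide 2 held mOct4 clone 2 alone, so the fit on slide 1, with no call, is the same as the one without that clone. With the 4 coelacanth clones fitted as 1 group only Unc5a passed. Centring on array medians, which moved the median gene from 0.02 to -0.15, gave 420 higher and 931 lower calls.

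The mouse Pou5f1 transcript was read first. It was at -1.75 and -1.47 in the mOct4 clones, at -4.77 and -4.04 in the LcPOU5F1 clones and at -3.19 and -5.93 in the LcPOU5F3 clones. The mOct4 arrays read it and no coelacanth array read it well above background, and the groups did not overlap. The coelacanth clones were lower by at least 2.54-fold, with an adjusted p of 0.0945 in limma. No source used here gives the probe's place relative to the plasmid's coding sequence, so it does not check the labels.

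Most of the pluripotency circuit did not shift in all 4 coelacanth clones. Nanog, a homeodomain factor of the naive state, was at 4.69 and 4.70 with mOct4, 4.43 and 4.38 with LcPOU5F1 and 3.19 and 2.12 with LcPOU5F3. All 4 coelacanth clones were below both mOct4 clones, by a small step with LcPOU5F1, and the gene did not pass (adjusted p = 0.0925). A second, dimmer Nanog probe gave a difference of -0.04. Sox2, the DNA-binding partner of OCT4, was at 4.02 and 3.83 with mOct4, and the LcPOU5F1 clones (4.08 and 4.32) lay above those while the LcPOU5F3 clones (2.46 and 2.03) lay below. Esrrb, an orphan nuclear receptor, was at 7.12 in both mOct4 clones, 7.05 and 7.14 with LcPOU5F1 and 5.25 and 4.03 with LcPOU5F3. Klf4, Zfp42 and Utf1 also had LcPOU5F1 clones within or above the mOct4 range on at least 1 array, and adjusted p-values of Nanog, Sox2, Klf4, Esrrb, Zfp42 and Utf1 ran from 0.089 to 0.18.

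A small subset of OCT4 and SOX2 targets fell with both proteins. For scale, 2.97% of all genes tested were called higher and 2.25% lower. Of 20 such targets 3 were called lower, none higher and 17 did not pass, and the median difference of the list was 0.00 with LcPOU5F1 and -1.68 with LcPOU5F3 (-0.95 together, against 0.02 for all genes). Fbxo15, an F-box gene used as a pluripotency reporter, was at 5.37 and 5.56 with mOct4, 3.83 and 4.67 with LcPOU5F1 and 2.77 and 2.29 with LcPOU5F3. Every coelacanth clone was below both mOct4 clones, and the mean fall was 4.21-fold (-2.07 ± 0.29 SE, adjusted p = 0.0356 in limma). Upp1, a uridine phosphorylase, was at 5.41 and 5.58 with mOct4, 3.98 and 4.58 with LcPOU5F1 and 2.33 and 1.87 with LcPOU5F3, a fall of 4.92-fold. For both genes the fall was larger with LcPOU5F3 (7.65-fold and 10.5-fold) than with LcPOU5F1 (2.32-fold and 2.31-fold). Otx2, a homeobox factor of formative and primed epiblast, was at 4.33 and 4.64 with mOct4 and between 2.95 and 3.44 in the 4 coelacanth clones, a fall of 2.33-fold with a narrow difference between the proteins (95% interval of LcPOU5F3 minus LcPOU5F1 from -0.77 to 0.28). Dppa2, a chromatin factor of early embryos, fell 2.21-fold. Of 23 naive pluripotency genes only Fbxo15 was called, of 23 general pluripotency genes only Dppa2 and Dnmt3l, and of 16 formative genes only Otx2. The naive list had a median difference of -0.02 with LcPOU5F1 and -1.68 with LcPOU5F3.

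**Figure D1:**
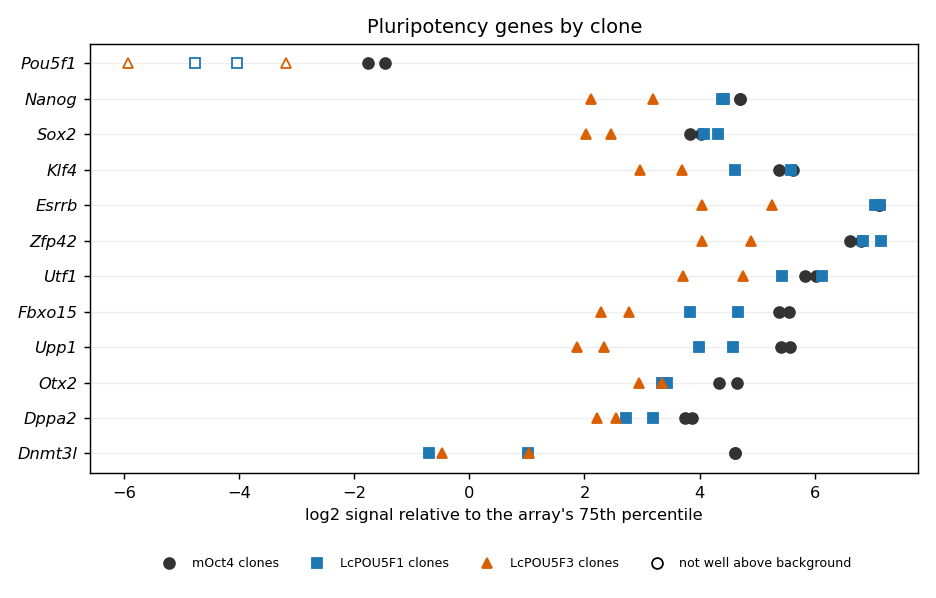
Log2 level relative to the array's 75th percentile (x axis) of pluripotency genes (rows), 1 point for each mOct4, LcPOU5F1 or LcPOU5F3 clone, open where not well above background. Fbxo15, Upp1 and Otx2 are lower in all 4 coelacanth clones, whereas for Sox2, Esrrb and Zfp42 the LcPOU5F1 clones lie with the mOct4 clones.

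The shared falls with the widest gap between the nearest clones were in a meiosis regulator and a cofactor of DNA methylation. Stra8, which germ cells switch on in response to retinoic acid as they enter meiosis, was at 3.34 and 3.72 with mOct4, -0.39 and -2.66 with LcPOU5F1 and -3.12 and -3.88 with LcPOU5F3. The groups were far apart, and only 1 of the 2 arrays of each coelacanth protein read the probe well above background, so the folds rest in part on unread signals. The fall was 65.7-fold (-6.04 ± 0.66 SE, adjusted p = 0.0266 in limma), 33.1-fold with LcPOU5F1 and 131-fold with LcPOU5F3. Dnmt3l, an inactive relative of the DNA methyltransferases that stimulates new methylation, was at 4.61 in both mOct4 clones, 1.01 and -0.70 with LcPOU5F1 and 1.04 and -0.47 with LcPOU5F3. Each protein had 1 clone near 1 and 1 clone below 0, and all 4 were more than 3 log2 units under the mOct4 clones. The fall was 20.9-fold (-4.39 ± 0.63 SE, adjusted p = 0.0356), 21.9-fold with LcPOU5F1 and 20.0-fold with LcPOU5F3, and the interval of the difference between the proteins ran from -1.71 to 1.97.

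Gstt1, a theta-class glutathione transferase, had the smallest standard error among shared falls of more than 3 log2 units. It was at 0.88 and 0.63 with mOct4, -2.15 and -1.99 with LcPOU5F1 and -2.47 and -2.54 with LcPOU5F3. The coelacanth clones lay 8.21-fold below the mOct4 clones (-3.04 ± 0.14 SE, adjusted p = 0.012 in limma). LcPOU5F1 alone passed against mOct4 as well in limma (7.07-fold, adjusted p = 0.0346), as did LcPOU5F3 (9.54-fold, adjusted p = 0.00264). LcPOU5F3 clone 1 did not read Gstt1 well above background, at -2.47 against an array floor of -2.45. The LcPOU5F3 fold and the spread of that group therefore rest in part on an unread signal. Of 35 glutathione and xenobiotic enzymes 3 were lower and 2 higher, against 2.25% and 2.97% of all genes. Gstt1 was the one with every clone at least 2-fold lower. Aldh3b1, an aldehyde dehydrogenase, fell by 1.71 on the log2 scale, and Gpx8, a glutathione peroxidase of the endoplasmic reticulum, rose by 1.61.

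The other large falls, each read well above background on at least 1 array of every group, came from varied gene families. Oasl1, an interferon-inducible oligoadenylate synthetase-like gene, was at 0.17 and 0.15 with mOct4 and between -3.79 and -2.06 in the coelacanth clones, a fall of 8.61-fold that was 8.69-fold with LcPOU5F1 and 8.53-fold with LcPOU5F3. Slc9b2, a sodium-proton exchanger, was at 0.84 and 0.82 with mOct4 and between -2.20 and -1.27 in the coelacanth clones, a fall of 6.28-fold. Chst8, a sulfotransferase acting on N-acetylgalactosamine, was at 0.24 and 0.64 against -2.15 to -1.65, a fall of 4.91-fold. Both were at least as low with LcPOU5F1 as with LcPOU5F3 in their means. Bdh2, a hydroxybutyrate dehydrogenase, was at 3.58 and 3.40 with mOct4 and at 1.52 or less in the others, a fall of 6.44-fold. Clstn3, a calsyntenin of synapses, fell 11.5-fold, Arhgap9, a GTPase-activating protein, 6.08-fold, Meltf, the iron-binding melanotransferrin, 5.20-fold, Pramel20, of the PRAME family, 4.45-fold and Pianp, a partner of the PILR receptors, 3.56-fold. Clstn3 and Pianp were read well above background on only 1 array of each coelacanth protein. Oasl1 was unread in LcPOU5F1 clone 5 and Meltf in LcPOU5F3 clone 1. The folds of these genes rest in part on unread signals. PRAME-like genes come in near-identical copies, so the Pramel20 value may include signal from relatives.

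**Figure D2:**
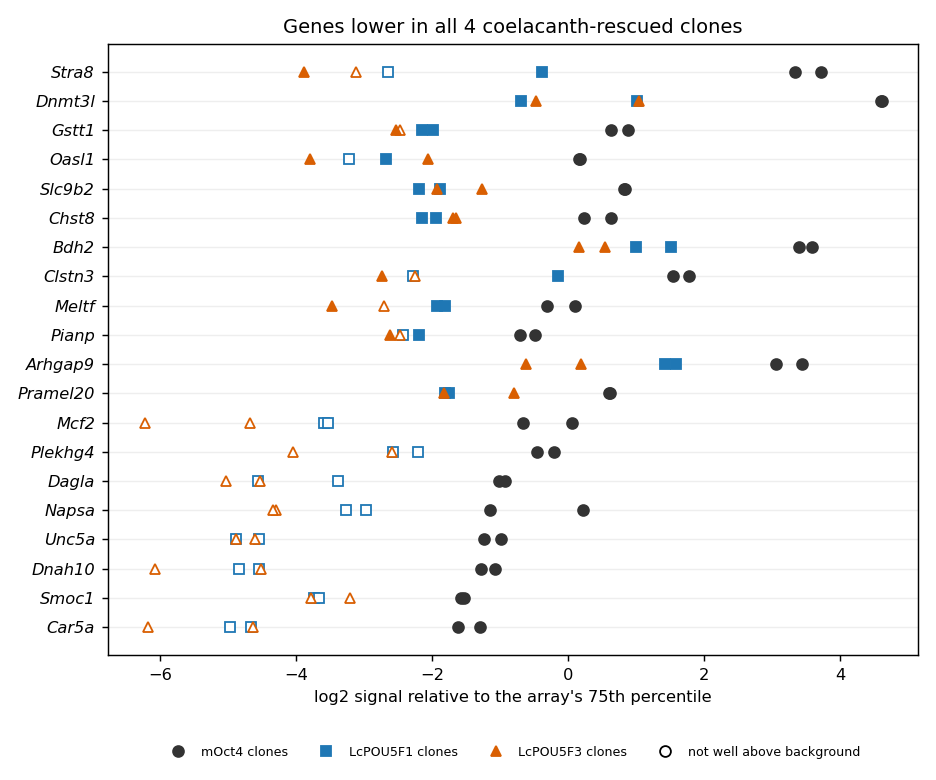
Log2 level relative to the array's 75th percentile (x axis) of the 12 genes with the widest shared fall, Stra8 to Pramel20, and of 8 genes read only with mOct4, Mcf2 to Car5a, 1 point for each clone and open where not well above background. In every row all 4 coelacanth points lie below both mOct4 points, with the widest separation for Stra8 and Dnmt3l.

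A further set of genes was readable with mOct4 but well above background on none of the coelacanth arrays, so that only a bound of the fall can be given. There were 37 such genes among the lower ones whose order held above the highest floor, and 4 in the opposite direction among the higher ones. Unc5a, a netrin receptor of axon guidance, was at -0.99 and -1.24 with mOct4, -4.89 and -4.54 with LcPOU5F1 and -4.60 and -4.88 with LcPOU5F3. The fall was at least 3.59-fold (adjusted p = 0.012 in limma), and each protein passed on its own. Mcf2, a guanine nucleotide exchange factor, was at least 6.28-fold lower, Napsa, an aspartic protease, at least 5.55-fold, Plekhg4, another exchange factor, at least 5.47-fold and Dagla, which makes the endocannabinoid 2-AG, at least 3.96-fold. Smoc1, a matricellular antagonist of BMP signals, was at least 2.58-fold lower. Dnah10, a dynein of cilia, and Car5a, a mitochondrial carbonic anhydrase, followed the same pattern. Each such bound sets the mOct4 mean against the lowest readable signal of the coelacanth arrays, whose floors were not the same as those of the mOct4 arrays. These genes entered the test only through the mOct4 clones, where they were high, so their p-values and their number are a description.

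The shared rises included a homeobox gene, an inhibitor of Nodal and the cell cycle inhibitors of the Ink4 locus. Meis1, a TALE homeobox factor that partners HOX and PBX proteins, was at -0.78 and -1.79 with mOct4, 1.89 and 2.07 with LcPOU5F1 and 2.40 and 2.24 with LcPOU5F3. The coelacanth clones lay close together and well above the mOct4 clones, which differed from each other by about 1. The rise was 10.8-fold (3.43 ± 0.30 SE, adjusted p = 0.0196 in limma), 9.60-fold with LcPOU5F1 and 12.2-fold with LcPOU5F3. Lefty2, a secreted inhibitor of Nodal, was at -0.36 and -1.27 with mOct4, 2.28 and 2.95 with LcPOU5F1 and 2.95 and 1.78 with LcPOU5F3. The ranges of the coelacanth proteins overlapped, and both lay above mOct4, with a rise of 9.87-fold (3.30 ± 0.45 SE, adjusted p = 0.0354). Its neighbour in function Lefty1 was at 0.77 and -0.83 with mOct4 and between -0.04 and 1.52 in the others, with overlap.

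Cdkn2a, which codes for p16INK4A and ARF, was at 2.06 and 1.23 with mOct4, 3.81 and 3.85 with LcPOU5F1 and 4.05 and 4.33 with LcPOU5F3. Every coelacanth clone was above the mOct4 clones, by 5.15-fold on average (2.36 ± 0.26 SE, adjusted p = 0.0266 in limma), and a second probe gave 2.61. Cdkn2b, the adjacent gene for p15INK4B, was at -2.81 and -2.99 with mOct4, -0.997 and -1.19 with LcPOU5F1 and 0.45 and 1.33 with LcPOU5F3. It rose 3.50-fold with LcPOU5F1 and 13.8-fold with LcPOU5F3, and a second probe gave a difference of 2.31. Of 35 cell cycle and replication genes these and Mycl, a MYC family gene, were the only calls. All were higher, against 2.97% of all genes.

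Irgm1, an interferon-inducible GTPase of autophagy, was at -3.56 and -3.43 with mOct4 and between -0.73 and 0.64 in the coelacanth clones, a rise of 9.87-fold, with 2.53 on the log2 scale from a second probe. Runx1t1, a corepressor of the ETO family, rose 9.29-fold and Tbx20, a T-box factor of the heart, 10.1-fold, with 1.80 on the log2 scale from a second Tbx20 probe. Runx1t1 was not well above background in mOct4 clone 2. Smaller rises were seen for Tex15, a testis gene of piRNA-directed silencing (3.67-fold), Dapk1, a death-associated kinase (3.51-fold), L3mbtl3, a reader of methylated lysine (3.53-fold), and Tmem238, a transmembrane protein (3.54-fold). Tex15 was 3.69-fold higher with LcPOU5F1 and 3.64-fold with LcPOU5F3, with an interval of the difference from -0.69 to 0.65. Samd5, a SAM-domain gene, rose 7.16-fold, with 3.18-fold for LcPOU5F1 and 16.1-fold for LcPOU5F3. Nell1, a secreted thrombospondin-like protein, was below the readable range in both mOct4 clones and at -0.20, -0.89, -1.17 and -1.40 in the coelacanth clones. It was at least 7.02-fold higher (adjusted p = 0.0128 in limma), and the interval of LcPOU5F3 minus LcPOU5F1 ran from -1.42 to -0.06, without passing after adjustment. Mal, a proteolipid of apical sorting, was at least 15.6-fold higher, Nipal1, a magnesium transporter, at least 3.81-fold and Thbd, the thrombin receptor thrombomodulin, at least 3.63-fold. Nell1, Mal, Nipal1 and Thbd entered the test only through the coelacanth clones, where they were high, so their p-values are a description.

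**Figure D3:**
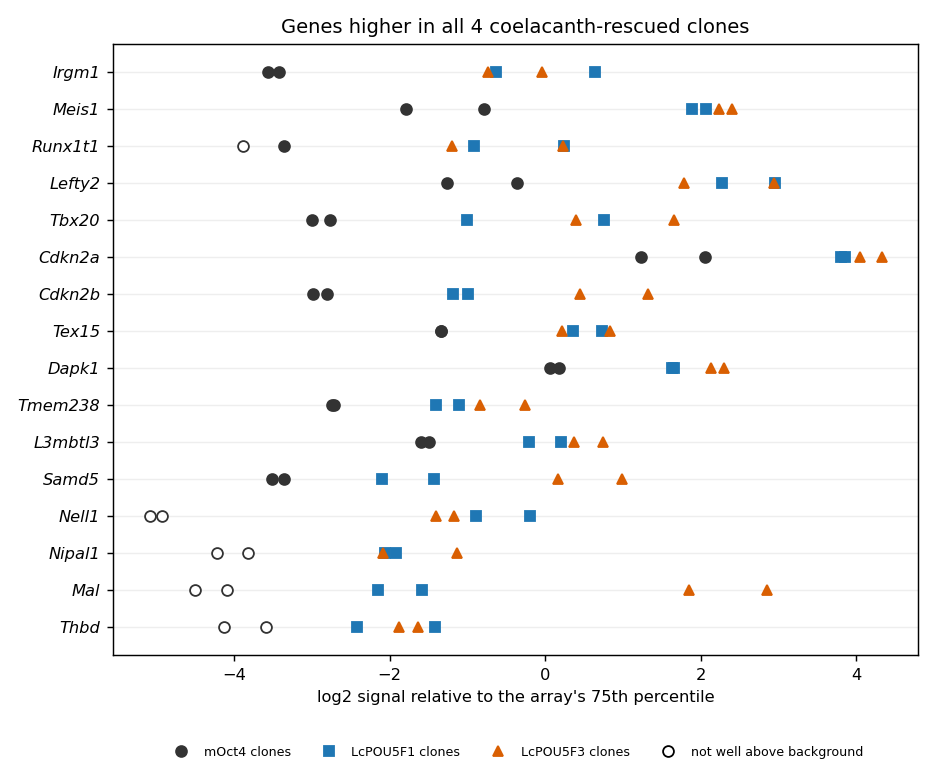
Log2 level relative to the array's 75th percentile (x axis) of the 12 genes with the widest shared rise and of Nell1, Nipal1, Mal and Thbd, which were not read with mOct4, 1 point for each clone and open where not well above background. Meis1, Lefty2 and Irgm1 show coelacanth clones of both proteins at like levels, while for Cdkn2b and Samd5 the LcPOU5F3 clones lie above the LcPOU5F1 clones.

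Many shared genes shifted by different amounts with each protein. The difference LcPOU5F3 minus LcPOU5F1 passed for 369 of the 646 (57.1%), and 277 did not pass. It passed for 20.6% of all genes, but the 646 were chosen with the same LcPOU5F3 arrays and estimate of spread. A higher share among them was therefore likely beforehand and is not a result about the shared genes. The shift from mOct4 was larger with LcPOU5F3 in 559 and with LcPOU5F1 in 87. The choice of the 646 bears on this split and on the medians that follow, and no share over all genes stands beside them. They are likewise a description. Among the 529 whose order held, the higher genes had median differences of 0.65 with LcPOU5F1 and 1.79 with LcPOU5F3, and the lower genes -1.06 and -1.92. The LcPOU5F1 and LcPOU5F3 comparisons share the mOct4 clones: on their own they called 5 genes (0.0343%) and 3436 genes (23.5%), and 631 of the 646 passed with LcPOU5F3. Both used a common estimate of the spread. The median standard deviation between a group's clones was 0.105 with mOct4, 0.151 with LcPOU5F1 and 0.232 with LcPOU5F3. All 5 of the LcPOU5F1 calls were shared genes, namely Gstt1, Unc5a, Nell1, Hoxb13 and Cubn. Hoxb13, a posterior homeobox gene, was at least 8.31-fold lower with LcPOU5F1 and 1.43-fold lower with LcPOU5F3. Cubn, which codes for the uptake receptor cubilin, was at least 5.69-fold higher with LcPOU5F1 and was well above background in neither the mOct4 nor the LcPOU5F3 clones. It entered the test only through the LcPOU5F1 clones, where it was high, so its p-values are a description. The order of its LcPOU5F3 and mOct4 clones rests on unread signals and did not hold above the highest floor. In 138 shared genes the 95% interval of the difference between the proteins stayed within 1 log2 unit either way. Of the 80 genes with every clone at least 2-fold beyond mOct4, the difference between the proteins passed for 19, 17 lower and 2 higher.

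**Figure D4:**
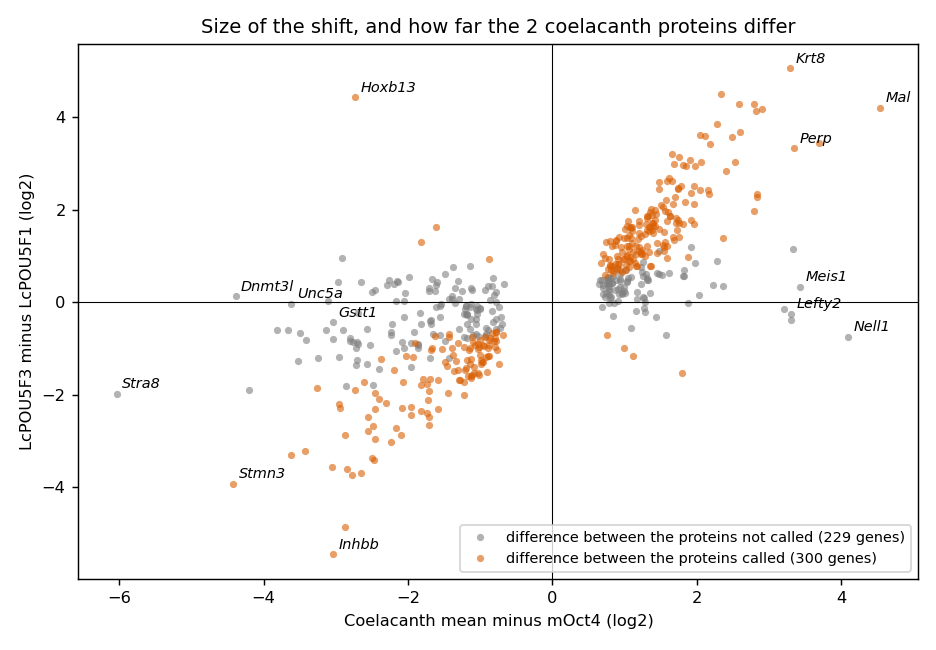
For each shared gene whose order held, the mean shift of both coelacanth proteins from mOct4 (x axis, log2) is set against LcPOU5F3 minus LcPOU5F1 (y axis, log2), 1 point a gene, coloured by whether that second difference passed limma's test. Dnmt3l, Meis1 and Unc5a lie near 0 on the y axis, whereas Krt8 lies at 5.06 and Inhbb at -5.45.

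Secreted signals and their receptors were a mixed group. The list counts below stand beside 2.97% of all genes called higher and 2.25% called lower. Of 23 genes of Nodal, activin and BMP signalling 4 were higher and 2 lower. Besides Lefty2, Smad6, an inhibitory SMAD of BMP signalling, was at 1.66 and 2.33 with mOct4 and between -0.08 and 0.51 in the coelacanth clones, a fall of 3.27-fold. Tgfb2 and Fst, a ligand and the activin-binding follistatin, rose by 2.52 and 2.04 on the log2 scale. Inhbb, an activin subunit, met the condition but shifted almost wholly with LcPOU5F3 (54.4-fold lower, against 1.24-fold with LcPOU5F1). It was not well above background in LcPOU5F3 clone 1. Of 28 FGF and LIF genes only Fgfr4, an FGF receptor, was called, 3.16-fold lower, and a second, dimmer probe gave -0.61. The first probe was not well above background in LcPOU5F1 clone 5. Of 28 Wnt genes 4 were higher and none lower, with Wnt10a at 1.43 ± 0.14 SE (0.54 with LcPOU5F1 and 2.32 with LcPOU5F3). Of 26 Hedgehog and retinoid genes only Rbp4, a retinol carrier, was called, 3.23-fold lower. Of 41 axon guidance genes 5 were higher and 3 lower, among them Sema6a at 1.88, Robo4 at -1.93 and Plxnd1 at -0.79 with each protein.

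Lineage genes moved in both directions, and mostly with LcPOU5F3. Calls over all genes tested were 2.97% higher and 2.25% lower. Of 27 trophectoderm and trophoblast genes 6 were higher and 1 lower, with list medians of -0.84 for LcPOU5F1 and 2.33 for LcPOU5F3. The summed trophectoderm markers given above moved with LcPOU5F3, and their part in the results of that group was not tested. The fall was in Eomes, a T-box factor of trophoblast and of the primitive streak, at 1.57 and 2.02 with mOct4 and between -0.89 and 0.28 in the coelacanth clones. It was 4.79-fold lower (-2.26 ± 0.33 SE, adjusted p = 0.0372 in limma), and a second probe gave -3.13. Krt8, a keratin of simple epithelia, was at 0.76 and 0.73 with mOct4, 1.64 and 1.37 with LcPOU5F1 and 6.42 and 6.71 with LcPOU5F3. All coelacanth clones were above mOct4, by 1.70-fold and 56.7-fold. Its partner Krt18 was at 2.83 in LcPOU5F1 clone 5, below both mOct4 clones, so that it was called but not shared. Cdx2, the trophectoderm homeobox factor, was at -0.55 and -0.61 with mOct4, at -2.25 and -4.68 with LcPOU5F1 and at 3.10 and 3.40 with LcPOU5F3, in opposite directions. Of 26 epithelial adhesion genes 7 were higher and none lower. Perp, a desmosome-associated p53 target, was 3.21-fold higher with LcPOU5F1 and 32.5-fold with LcPOU5F3, and Cldn6, a tight junction claudin, rose by 1.97 and 5.42 on the log2 scale. Dsg2, a desmoglein, rose by 0.80 and 1.26.

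Of 16 primitive and visceral endoderm genes 5 were higher and 1 lower, against 2.97% and 2.25% of all genes. The lower one, Amn, the amnionless subunit of the cubilin receptor, was at 0.46 and 0.36 with mOct4 and between -1.32 and -0.89 in the coelacanth clones, 2.91-fold lower. Lamb1, a laminin chain, rose by 1.38 (0.44 with LcPOU5F1 and 2.32 with LcPOU5F3). Of 12 neuroectoderm genes 3 were lower, including Stmn3, a stathmin of neurons, 5.51-fold lower with LcPOU5F1 and at least 29.0-fold lower with LcPOU5F3, whose arrays did not read it well above background, and of 12 mesoderm genes only Eomes was called. Of 17 fibroblast genes 4 were higher, and of these only Dcn met the side condition, with mOct4 and LcPOU5F1 clones below the readable range. Of 16 Hox genes 1 was higher and 1 lower.

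Of 23 germline and meiosis genes 2 were called lower, against 2.25% of all genes. In all 4 coelacanth clones 8 were lower, against 13.3% of all genes. Sycp3, of the synaptonemal complex, was at 2.82 and 2.27 with mOct4, 0.78 and -0.92 with LcPOU5F1 and -0.73 and -2.55 with LcPOU5F3, without passing (adjusted p = 0.0609 in limma). Of 14 genes of the 2-cell-like state none was called. In all 4 clones 8 were lower, against 13.3% of all genes, with a list median of -1.39. Of the 6 summed markers of that state, mOct4 arrays read 6 well above background, LcPOU5F1 arrays 1 to 2 and LcPOU5F3 arrays 3. Members could enter the test through the mOct4 clones alone, where they were high, so the count of lower members is a description. Zscan4c, a telomere regulator of that state, was at 2.72 and 2.51 with mOct4, -1.81 and -3.47 with LcPOU5F1 and 1.51 and -2.12 with LcPOU5F3, and the clones of each coelacanth protein differed widely. Of 38 DNA methylation and chromatin regulators Dnmt3l was lower and Gadd45b higher, and 10 were lower in all 4 clones, against 13.3%. Of 18 imprinted genes 4 were higher and 2 lower, against 2.97% and 2.25% of all genes. Snrpn, a paternally expressed gene of the Prader-Willi region, was at 2.66 and 2.68 with mOct4 and between 1.23 and 1.85 in the coelacanth clones, and Magel2, of the same region, was at least 1.80-fold lower. Dlk1, Nnat, Gnas and Sgce rose. On the log2 scale Dlk1 rose by 0.35 with LcPOU5F1 and 4.22 with LcPOU5F3, Nnat by 0.75 and 3.10, and Gnas by 0.64 and 1.58.

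Of 27 p53 targets 6 were called higher and none lower, against 2.97% and 2.25% of all genes. In all 4 clones 12 were higher, against 15.3% of all genes. Btg2, an antiproliferative gene, was at -0.43 and -0.35 with mOct4, 0.59 and 0.62 with LcPOU5F1 and 2.86 and 3.05 with LcPOU5F3, a rise of 1.99-fold and then 10.2-fold. Phlda3, an inhibitor of AKT, was at 3.53 and 3.59, then 4.49 and 4.56, then 5.64 and 6.24 in the same order. For both genes the clones of the 3 proteins did not overlap. Bbc3, which codes for the killer protein PUMA, rose 1.79-fold, and Plk2, Eda2r and Perp were the other calls. Plk2 rose by 0.31 on the log2 scale with LcPOU5F1 and by 3.91 with LcPOU5F3. In the BCL2 family of 17 genes Bbc3 was higher and Hrk, another BH3-only killer gene, was lower, at least 6.22-fold.

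**Figure D5:**
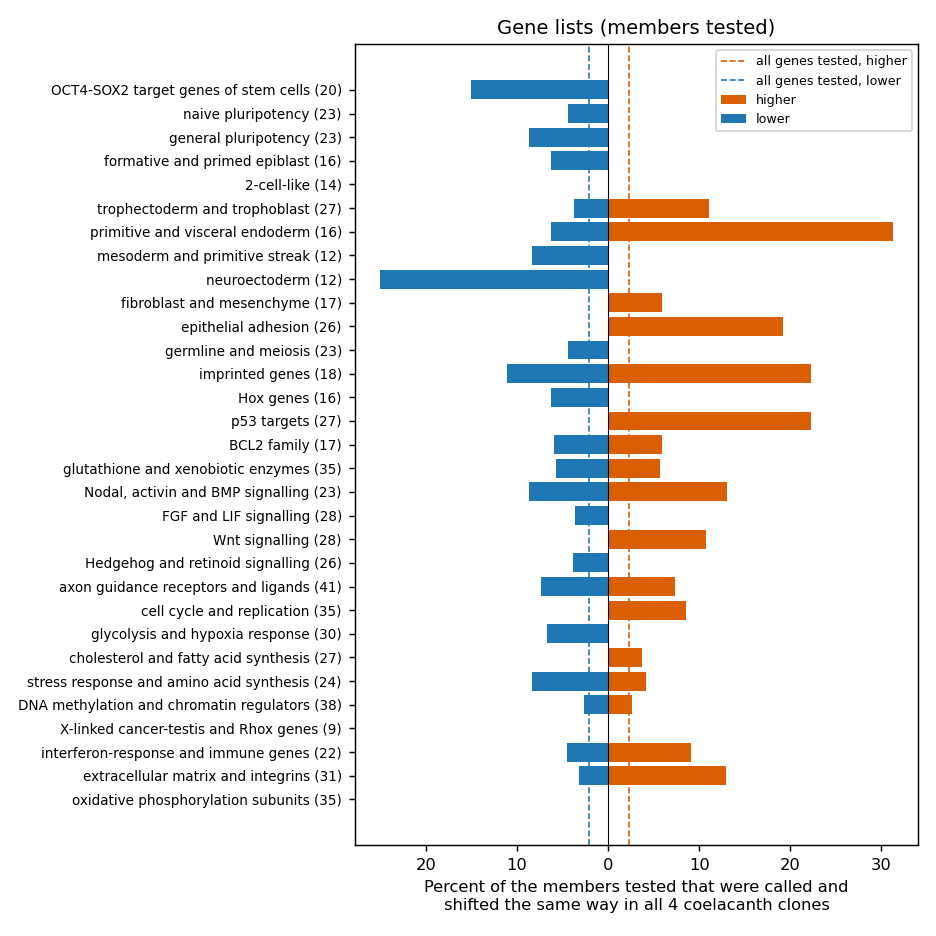
Share of each gene list (x axis, percent of tested members) that was shared and higher (bars to the right) or shared and lower (to the left), with the shares over all genes tested, 2.3% and 2.12%, as reference lines. Lists hold 9 to 41 tested genes, so 1 gene moves a share by several percentage points.

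Of 30 glycolysis and hypoxia genes 3 were lower and none higher, against 2.25% and 2.97% of all genes, and 10 were lower in all 4 clones, against 13.3% of all genes. Vegfa, an angiogenic growth factor, fell 1.90-fold and Eno2, an enolase, 1.77-fold. Of 24 stress and amino acid genes 2 were lower and 1 higher. Trib3, a pseudokinase of the ATF4 response, fell 2.99-fold, Mthfd2, a mitochondrial folate enzyme, fell 2.31-fold, and the heat shock gene Hspa1a rose by 1.33. Each shifted more with LcPOU5F3 than LcPOU5F1: Trib3 by -2.42 against -0.74, Mthfd2 by -1.93 against -0.48, Hspa1a by 2.27 against 0.40. Of 27 cholesterol and fatty acid genes only Me1, malic enzyme, was called, higher by 1.06. None of 35 oxidative phosphorylation subunits and none of 9 X-linked cancer-testis and Rhox genes was called. Of 31 matrix and integrin genes 4 were higher and 1 lower: Itga8 and Nell1 rose and Itga7, a laminin receptor chain, fell by 1.62. Of 22 interferon and immune genes 2 were higher and 1, Oasl1, was lower. Ifitm3, among the higher, was at 1.96 (0.89 with LcPOU5F1 and 3.02 with LcPOU5F3).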

How the data were processed

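Total RNA with an RNA integrity number of 10, per the labels, was read on 6 1-colour Agilent arrays of 55681 non-control probes. Per the file headers, the authors' deposited intensity values are linear processed signals of Agilent Feature Extraction, background-subtracted, not scaled between arrays. In the deposited series matrix the same intensity values are rounded. No spot was saturated. Precision is limited by having 6 arrays.

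From log2 signals the 75th percentile of the array's non-control spots was subtracted. A probe stayed in if 1 or more groups read it well above background on both arrays (30949, 5 of them incomplete). Unversioned accessions matched to RefSeq named 27656 probes and left 28025 unnamed. For 3630 genes with several kept probes the brightest stood for the gene, leaving 14595 genes. Means of the 3 groups were fitted with limma 3.58.1 in R 4.3.3 (lmFit, eBayes, 3 residual degrees of freedom). The contrast was the mean of both coelacanth groups minus mOct4, with Benjamini-Hochberg adjusted p under 0.05.

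The genes and the 31 gene lists were chosen with earlier results of these data known, so lists are described by counts and medians without a test. The naming rule took the 12 shared genes with the widest gap in each direction, up to 8 per direction read only on 1 side, up to 4 of the smallest p per list, and a fixed set of pluripotency and lineage genes. Other list members are named from the lists' calls, and Lefty1, Sycp3 and Zscan4c after their values were seen. A bound ("at least") sets the brighter mean against the higher of each dim array's lowest readable signal and the probe's own. On simulated data with 200 changed genes of 14595, 90% of changes of 2 and 28% of changes of 1 on the log2 scale were recovered, with 4 false calls. Normexp used the median spot intensity, since the mean was not among the columns used here. Alternatives covered normalization, background, filters, probes, fits, thresholds, slide, block and each clone left out, and a 75th percentile over probes read on all arrays was added after the data were seen. No label says what the clone numbers mean. Between mOct4 and LcPOU5F3, deviations of same-numbered clones correlated at -0.0966, and LcPOU5F1 has no clone of those numbers. A single such correlation cannot decide whether clones share a source.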

Additional observations from a re-analysis of the deposited data

Results flagged for a closer look

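Pramel20 was set apart by 1 clone. Of the 4 coelacanth clones, LcPOU5F3 clone 1 was at -0.79 and the other 3 lay between -1.83 and -1.75, so its gap to the next clone was 0.925 of the range. All 4 remained below the mOct4 clones, and chance sets apart about 1 in 20 such groups.

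The difference between the coelacanth proteins passed limma's test for 369 of the 646 shared genes. Among the genes named for the widest shared gap or for being read on 1 side alone, it stood out, in LcPOU5F3 minus LcPOU5F1 on the log2 scale, for Cdkn2b (1.98), Samd5 (2.34), Mal (4.21), Meltf (-1.23) and Arhgap9 (-1.72). In all 5 the shift from mOct4 was larger with LcPOU5F3, and both proteins shifted the same way.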

How the results depend on the processing

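The counts of called genes, shared genes and shared genes that differ between the proteins (762, 646 and 369) moved with the processing. Quantile normalization called 1192 genes, and median centring 1351, with 156 shared higher and 791 shared lower. The 3 counts were 1357, 1050 and 583 with normexp, 6, 6 and 4 with no filter on dim probes, 1843, 1426 and 789 with an intensity trend, 0, 0 and 0 in limma at an adjusted p under 0.01 (4095 genes had an unadjusted p under 0.05), 2202, 1723 and 929 under 0.1, and 0, 0 and 0 within slide 1, which equals leaving out mOct4 replicate 2. A variance weight per group called 2293 genes, 1767 of them shared. The 4 coelacanth clones as 1 group gave 1 called and 1 shared gene, and no test between the proteins. Leaving out each clone gave 0 to 2844 called, 0 to 1991 shared and 0 to 1313 differing between the proteins. The lone clone left in a group was then taken to vary like the others. The cause of these moves was not tested. The series matrix, a common floor, every kept probe, only probes read on all 6 arrays and the added 75th percentile kept all 3 counts within 1.5 times, though under the common floor 470 of the 762 called and 378 of the 646 shared genes were the same. Cdx2, which did not pass, passed with normexp (1.13) and the common floor (1.03), ran from -0.14 to 1.08 as clones were left out, and reversed without LcPOU5F1 replicate 4.

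With clone number as a replicate block the counts were 125, 114 and 78. No label gives clones of different groups more than a number in common, so this is not taken as a paired design. Dim signals limit both the falls and the rises. On no coelacanth array were 81 of 310 shared lower genes read, and on no mOct4 array 54 of 336 shared higher genes.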

Other observations

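Some genes outside the naming rule also had every coelacanth clone at least 2-fold beyond mOct4, and these were picked after their values were seen. Alpl, the tissue-nonspecific alkaline phosphatase used to stain stem cell colonies, was at 2.74 and 3.37 with mOct4, 0.53 and 1.07 with LcPOU5F1 and 1.40 and 1.28 with LcPOU5F3, a fall of 3.95-fold (-1.98 ± 0.25 SE, adjusted p = 0.0319 in limma). All 4 coelacanth clones lay below both mOct4 clones, and colonies of the series were themselves stained for this activity at picking. Khdc3, a gene of the oocyte's subcortical maternal complex, was at 4.31 and 4.72 with mOct4 and between 1.69 and 2.97 in the coelacanth clones, a fall of 4.70-fold. Dmrt1, a sex-determination and germ cell factor, was at 1.19 and 1.46 with mOct4 and between -1.47 and -0.06 in the others, a fall of 3.63-fold. Icam1, an adhesion receptor, fell 2.95-fold. Among the higher genes Tgfbr2, the type II receptor of TGF-beta, was at -0.16 and -0.62 with mOct4, 1.05 and 1.27 with LcPOU5F1 and 1.82 and 2.20 with LcPOU5F3, a rise of 3.95-fold (1.98 ± 0.21 SE, adjusted p = 0.0246 in limma).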
